A study of Mus musculus with 18 samples.

Results

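Adenosine kinase (Adk) and 9 other genes that make, move, sense or remove adenosine were followed in mouse cortical neurons that had received an MTOR construct. These 10 of the 24035 genes named in the count files, Adk, Ada, Adal, Adora1, Ahcy, Ahcyl1, Ahcyl2, Slc29a1, Nt5e and Pnp, were chosen by name. The list was selected on the Adk footprint values of these same libraries, which were already known to be higher in mutant neurons, so that difference is described here and not tested. Embryos of the C57BL/6 strain received the construct in utero on embryonic day 14, and cortical neurons that had taken it up were collected by flow sorting on embryonic day 18. The constructs carried MTOR with the substitution C1483Y, MTOR with the substitution L2427P, or wild-type MTOR (WT), so the WT neurons also went through electroporation and sorting. Ribosome footprints, the pieces of mRNA that a bound ribosome keeps from digestion by nuclease, and fragmented mRNA were sequenced from each genotype in 3 libraries each, 18 libraries in all. The labels name neither the promoter of the constructs nor the number of embryos behind a library, and nothing says that the libraries came from separate litters, so p-values measure the spread between these libraries, which may be technical. The comparison asks which footprints and which mRNAs differ between mutant and WT neurons.

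Adenosine builds up when ATP is broken down and when methyl groups are transferred, and outside cells it acts on receptors that, in the case of the A1 receptor, dampen excitatory transmission. Adenosine kinase turns adenosine back into AMP and sets much of the adenosine tone of the brain, and in mouse its expression moves from neurons to astrocytes after birth. The kinase MTOR controls protein synthesis, and the mRNAs it controls most tightly begin with a C followed by an uninterrupted run of C and T bases, the terminal oligopyrimidine tract.

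Since such tracts lie at the very first bases of an mRNA, the start windows of Adk are shown. Each window holds 15 bases before the start and 15 from it on, 5′ to 3′ on the gene's strand, from RefSeq on GRCm38.p6. Capitals would mark an uninterrupted run of C and T bases that includes the start base, and both windows have none.
Adk, first start, chr14:21052559-21052588, plus strand: cggtgacgagctgaggggcggggccaccgg
Adk, second start, chr14:21076137-21076166, plus strand: gggccagctcgccccgggccgcccgcgcgc
A C at the start base followed by 4 bases that are each C or T was searched at that position and on the gene's strand only, so matches cannot overlap. Of all 32851 windows, 823 (2.51%) held it. Neither Adk window did, and the windows of the other members are not described here. These are annotated windows, and the first base of the transcripts in these neurons was not measured. The Adk starts lie 23578 bases apart, and counts per gene do not tell them apart.

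Footprint libraries held 7695442 to 34094913 counts on named genes and mRNA libraries 18627076 to 53283035. Levels below are in CPM, counts scaled to an equal total on named genes in every library. Several libraries stood apart. Of the 5000 most abundant genes 51.6% were at 0 in mRNA library L2427P replicate 3, as were 23.2% in that of C1483Y replicate 3, against 0.32% to 15.8% in the other mRNA libraries. All 10 members were at 0 in that L2427P library. In footprint library C1483Y replicate 3 values are displaced against gene names after row 5400, so it was used only for the 7 members before that row, and 97.7% of its values above 0 are multiples of 4. In footprint library WT replicate 3 every count is a multiple of 3, so its depth may be overstated. Mtor itself had 730 to 2881 CPM in 5 mutant footprint libraries, against 3020 to 4242 CPM in the WT ones, and its mRNA had 281 to 787 CPM in mutant libraries, against 455 to 655 CPM in WT libraries. These counts do not separate the construct from the endogenous gene and so do not check the labels.

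Adk, which lies on chromosome 14 from 21052574 to 21448569 (GRCm38.p6), was the 1 member whose footprints separated both mutants from WT neurons. Its footprints lay at 63.4, 92.8 and 99.5 CPM in C1483Y replicates 1 to 3, at 61.3, 67.9 and 77.0 CPM in L2427P replicates 1 to 3, and at 0, 20.1 and 8.36 CPM in WT replicates 1 to 3. The lowest mutant library, with 61.3 CPM, was above the highest WT library, while the ranges of the mutants overlapped each other. The values rest on 716 to 2204 counts in the mutant libraries and on 0, 246 and 285 counts in the WT libraries. On average Adk footprints were at 85.2 ± 19.2 CPM in C1483Y neurons, 68.8 ± 7.89 CPM in L2427P neurons and 9.48 ± 10.1 CPM in WT neurons (SD, n = 3 each). The ratio of the mean over both mutants to the WT mean was 8.12, with 8.99 for C1483Y and 7.25 for L2427P. Without C1483Y replicate 3 the ratio was 7.65. It was 5.41 without WT replicate 1, the library at 0, and 18.4 without WT replicate 2, so single WT libraries moved it more than any mutant library did.

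Footprint library C1483Y replicate 3 was set apart from the others, and its Adk value of 99.5 CPM was the highest of all. Among 10315 genes tested in the other 8 libraries, 136 (1.32%) had all 5 mutant libraries above all 3 WT libraries, and Adk was the 1 such member among 9 tested. All 5 mutant libraries lay below WT in 0.882% of genes and in 0 of the 9 members. Of those 136 genes, 78 had a ratio of means at least as high as that of Adk or WT libraries all at 0. With C1483Y replicate 3 included, 18 of 2141 genes up to row 5400 (0.841%) had all 6 mutant libraries above WT. Of the 26 genes up to that row that separated in the other libraries, 18 (69.2%) also had C1483Y replicate 3 above every WT library, against 26.6% of all 2141 genes. Because the list was made with the difference known, these shares say nothing further about Adk. In edgeR's fit over 8 libraries, footprints on Adk differed by 2.98 (log2) between both mutants and WT. The SE of 3.12 was derived from edgeR's F statistic, and both values are a description and not a test.

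**Figure D1:**
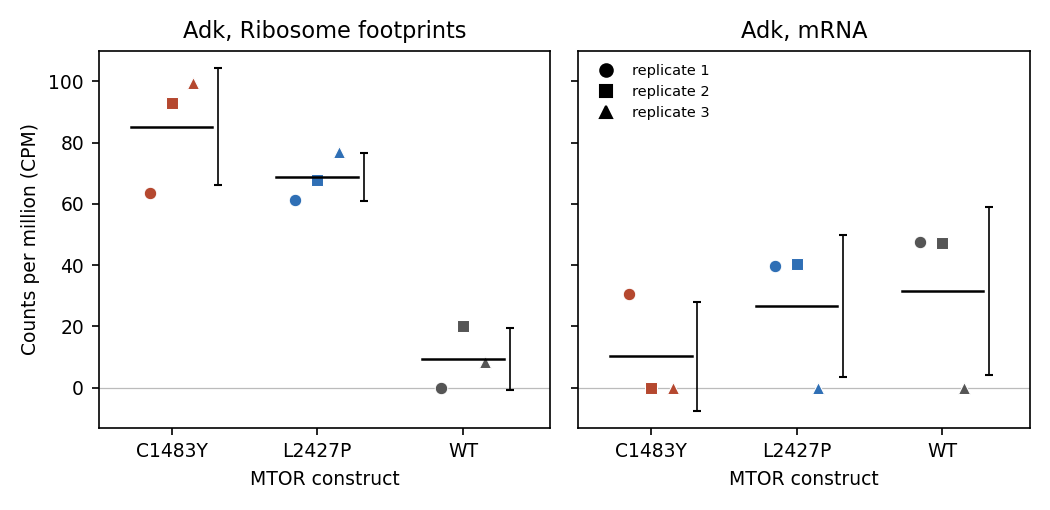
Adk footprints (left) and Adk mRNA (right) in CPM for C1483Y, L2427P and WT neurons. Points are libraries, lines are group means and bars are ± 1 SD (n = 3 libraries each). All 6 mutant footprint libraries, 61.3 to 99.5 CPM, sit above the WT libraries, 0 to 20.1 CPM, while the mRNA groups overlap.

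Adk mRNA did not separate the genotypes. It was at 30.8, 0 and 0 CPM in C1483Y replicates 1 to 3, at 39.7, 40.3 and 0 CPM in L2427P replicates 1 to 3, and at 47.7, 47.1 and 0.0209 CPM in WT replicates 1 to 3. Each genotype thus held at least 1 library with 0 counts or, in WT replicate 3, with 1 count. The means were 10.3 ± 17.8 CPM in C1483Y neurons, 26.7 ± 23.1 CPM in L2427P neurons and 31.6 ± 27.4 CPM in WT neurons (SD, n = 3 each). An exact two-sided permutation test of both mutants against WT on log2(CPM + 1) gave p = 0.536 (adjusted p = 0.988 over 16 such tests of members). Without mRNA library L2427P replicate 3 the L2427P mean was 40.0 CPM. Footprint CPM divided by mRNA CPM, each as a group mean, came to 8.31 in C1483Y, 2.58 in L2427P and 0.300 in WT neurons, and these ratios carry the same libraries at 0. In sorted cells measured in bulk, fewer cells of a type and less RNA per cell cannot be told apart.

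Since astrocytes carry Adk in the mature brain, 8 astrocyte markers were read beside it. Their summed footprints came to 752 to 1272 CPM in 2 C1483Y libraries, 472 to 939 CPM in L2427P libraries and 638 to 802 CPM in WT libraries. Both mutant ranges overlapped the WT range, and the lowest sum of all was in an L2427P library. The summed mRNA of these markers was at 159 to 753 CPM in C1483Y, 278 to 882 CPM in L2427P and 133 to 298 CPM in WT libraries. The mRNA means were 438, 494 and 237 CPM in that order, and the ranges overlapped. The highest mRNA sum was in L2427P replicate 3, the mRNA library with the most genes at 0. Over all genes tested in footprints, 1.32% had all 5 mutant libraries above all WT libraries and 0.882% had them below. Of 39 markers of all cell types tested, 2 had all 5 mutant footprint libraries above WT and 0 had them below. They were the astrocyte marker Slc1a2, a glutamate transporter, at 79.1 to 341 CPM in mutant and 44.2 to 77.3 CPM in WT libraries, and the neuronal marker Dcx, at 1503 to 2115 CPM in mutant and 14.7 to 1395 CPM in WT libraries. Their part in the Adk result was not tested. Footprints above 0 were found on 7 of the 8 markers in C1483Y, all 8 in L2427P and 7 in WT neurons, with Aqp4 at 0 in C1483Y and S100b at 0 in WT. Progenitor markers summed to 439 to 872 CPM in C1483Y, 370 to 749 CPM in L2427P and 510 to 704 CPM in WT footprint libraries. Markers of cortical projection neurons, the labelled cells, were all detected, at 11095 to 12367 CPM in C1483Y, 11341 to 12116 CPM in L2427P and 7536 to 11339 CPM in WT footprint libraries. WT footprint replicate 1, the library without Adk counts, had the lowest of these neuronal sums and also 16.6% of the 5000 most abundant genes at 0. Its part in the Adk result was not tested beyond the ratio without it.

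The receptor Adora1, which encodes the A1 receptor, had uneven footprints. They were at 159, 8.81 and 0.181 CPM in C1483Y replicates 1 to 3, at 49.99, 14.03 and 0.0419 CPM in L2427P replicates 1 to 3, and at 0, 0 and 0.264 CPM in WT replicates 1 to 3. Replicates 1 and 2 of both mutants lay above all WT libraries, and replicate 3 of both mutants lay below WT replicate 3. The replicate 3 values rest on 4 counts in C1483Y, 1 in L2427P and 9 in WT, too few to order them. Replicates 1 and 2 of C1483Y alone were above all WT libraries in 6.61% of all genes tested in footprints. They were so in 2 of 9 members, Adora1 and Adk. Adk was listed with its difference known and Adora1 passed the filter on low counts only through mutant libraries. This count therefore says nothing further about the members. Both mutants against WT had p = 0.0952 in the exact two-sided permutation test, the lowest of the 16 tests of members, and an adjusted p of 0.988, where 6 against 3 libraries can reach 0.0119. By edgeR's quasi-likelihood test, which leaves out C1483Y replicate 3, Adora1 had an adjusted p of 0.710 for C1483Y against WT and 0.812 for L2427P against WT. The C1483Y mean was 56.1 CPM with replicate 1 and 4.49 CPM without it. Adora1 mRNA was above 1 CPM in a single library, C1483Y replicate 1 with 38.9 CPM.

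The other adenosine receptors were scarce. The receptor genes Adora2a and Adora2b had no footprint counts in any library. Adora2b mRNA was likewise at 0, and Adora2a mRNA reached 0.0751 CPM in mutant libraries, against 22.2 CPM in 1 WT library. Adora3 had no mRNA counts, and with C1483Y replicate 3 left out its footprints were above 0 in L2427P neurons only. There the 4 receptor genes summed to a mean of 21.4 CPM, and Adora1 alone had a mean of 21.4 CPM.

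Slc29a1, an equilibrative transporter that lets adenosine cross the membrane, varied widely between libraries of L2427P and of WT neurons. Its footprints were at 0 and 2.13 CPM in C1483Y replicates 1 and 2, at 122, 44.9 and 7.96 CPM in L2427P replicates 1 to 3, and at 0.130, 143 and 49.8 CPM in WT replicates 1 to 3. Its mRNA was at 7.08, 12.9 and 0.0751 CPM in C1483Y, 51.8, 111 and 0 CPM in L2427P, and 0, 47.0 and 6.37 CPM in WT replicates 1 to 3. L2427P neurons thus covered most of the span of WT neurons in footprints, while both usable C1483Y libraries were at the low end. The exact two-sided permutation tests of both mutants against WT gave p = 0.679 for footprints and p = 0.726 for mRNA, each with an adjusted p of 0.988.

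Nt5e, the surface enzyme that makes adenosine from AMP, had a count of 0 in all 8 usable footprint libraries and all 9 mRNA libraries. A count of 0 allows up to 3 counts, which is 0.0880 to 0.390 CPM in these footprint libraries and 0.0563 to 0.161 CPM in the mRNA libraries. The footprint limit of 0.0880 CPM may be too low, since all counts of WT replicate 3 are multiples of 3. Nt5e was not detectable at this depth in any genotype.

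**Figure D2:**
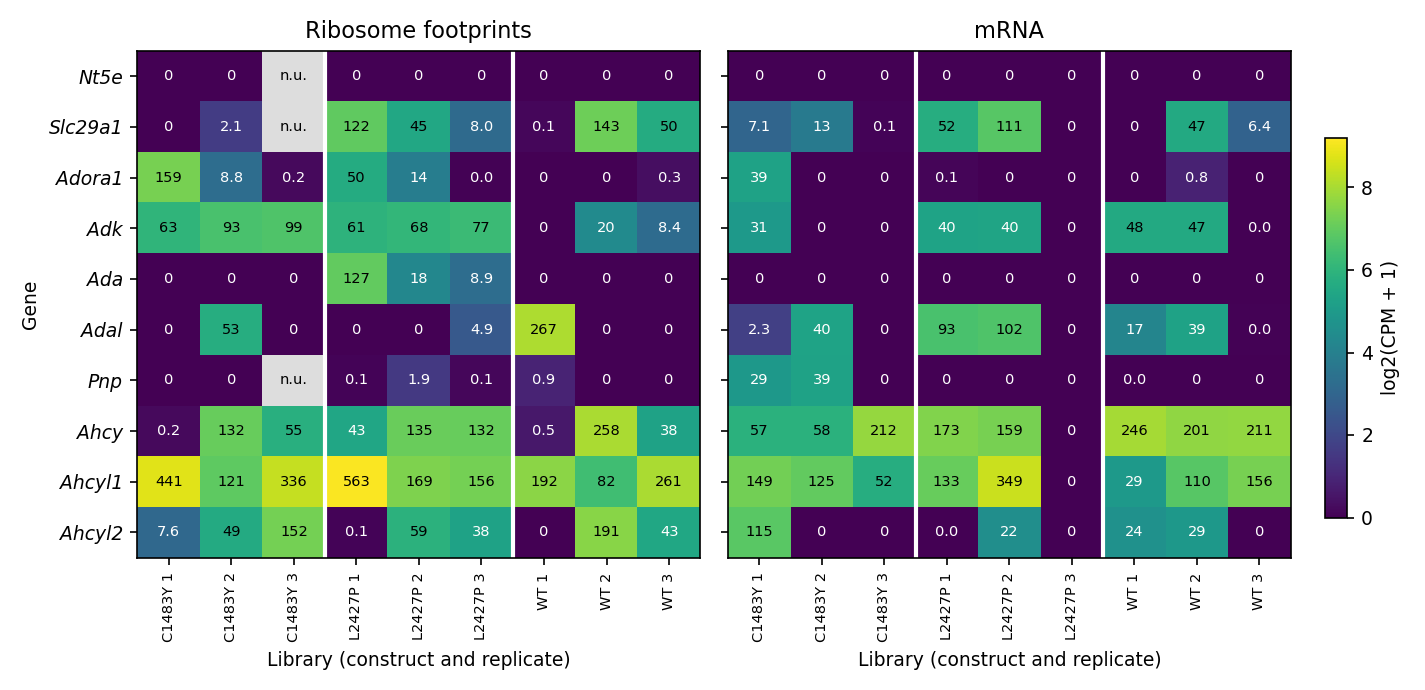
Level of the 10 members in each of the 9 footprint libraries (left) and 9 mRNA libraries (right), coloured by log2(CPM + 1) with the CPM written in each cell; n.u. marks values not used. Adk footprints are filled in every mutant library and low in WT, Ada footprints are filled in L2427P only, and the L2427P replicate 3 mRNA column is at 0 throughout.

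Ada, the adenosine deaminase that turns adenosine into inosine, lies on chromosome 2 from 163726571 to 163750239 (GRCm38.p6) and had footprints in L2427P neurons and in no other library. They were at 127, 18.02 and 8.89 CPM in L2427P replicates 1 to 3, on 1704, 190 and 212 counts, against 0 in all 3 C1483Y and all 3 WT libraries. The L2427P mean of 51.3 ± 65.8 CPM (SD, n = 3) rested mainly on replicate 1 and was 13.5 CPM without it. A count of 0 allows up to 3 counts in the WT libraries, which is 0.0880 to 0.390 CPM. Ada mRNA was at 0 in all 9 mRNA libraries, those of L2427P included. By edgeR's quasi-likelihood test the adjusted p was 0.764 for L2427P against WT (0.0210 unadjusted) and 0.925 for L2427P against C1483Y. DESeq2, run as an alternative, called Ada in both of these comparisons. Ada passed the filter on low counts only through its L2427P libraries, where it was high. These p-values and calls are therefore a description and not support for a difference. Among genes that DESeq2 gave an adjusted p, it called 2.55% in L2427P against WT and 4.1% in L2427P against C1483Y. All L2427P libraries lay above all WT libraries in 719 of the 10315 genes tested in footprints (6.97%). Ada and Adk were the 2 such members among 9 tested. Adk was listed with its difference known and Ada was kept only through L2427P libraries, so this count says nothing further about the members.

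Adal, an adenosine deaminase-like enzyme, had scattered footprints. They were at 0, 52.7 and 0 CPM in C1483Y, at 0, 0 and 4.95 CPM in L2427P, and at 267, 0 and 0 CPM in WT replicates 1 to 3. A single library carried most of the signal in each genotype, and the highest was a WT library. Adal mRNA was at 2.31, 39.6 and 0 CPM in C1483Y, 92.6, 102 and 0 CPM in L2427P, and 17.3, 38.8 and 0.0419 CPM in WT replicates 1 to 3. Apart from replicate 3, L2427P mRNA was above every WT library, but the exact two-sided permutation test of both mutants against WT gave p = 0.988 for mRNA and p = 0.821 for footprints (each adjusted to 0.988).

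Pnp, the purine nucleoside phosphorylase that splits inosine, was at or below 1.90 CPM in all 8 usable footprint libraries. Its mRNA was at 29.3, 38.5 and 0 CPM in C1483Y, 0 in all L2427P libraries, and 0.0200, 0 and 0 CPM in WT replicates 1 to 3. Reads that Pnp shares with its neighbouring copy Pnp2 could have been left out or assigned to either gene in the authors' counting, so these levels are uncertain. Both mutants against WT gave p = 0.50 for Pnp mRNA by the exact two-sided permutation test (adjusted p = 0.988).

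The S-adenosylhomocysteine hydrolase family had the most evenly detected members. Ahcy encodes the enzyme that releases adenosine and homocysteine after methyl transfer, and Ahcyl1 and Ahcyl2 encode related proteins that are known as regulators and not as hydrolases. Ahcy mRNA was at 57.2, 57.8 and 212 CPM in C1483Y, 173, 159 and 0 CPM in L2427P, and 246, 201 and 211 CPM in WT replicates 1 to 3. The means were 109 ± 89.1 CPM in C1483Y, 111 ± 96.0 CPM in L2427P and 219 ± 23.9 CPM in WT neurons (SD, n = 3 each). WT libraries lay close together, 5 of 6 mutant libraries were below all of them, and C1483Y replicate 3 lay within their range. Of these 5, 1 was L2427P replicate 3, the mRNA library with all members at 0. Over all genes tested in mRNA, 1.4% had every mutant library below WT and 0.241% had every one above. The share with 5 of 6 below was not counted. By edgeR, Ahcy mRNA of both mutants differed from that of WT by −1.09 on the log2 scale (unadjusted p = 0.384, adjusted p = 1.0), and it was −0.80 without L2427P replicate 3. Ahcy footprints overlapped between the genotypes, with 0.169, 132 and 54.9 CPM in C1483Y, 42.8, 135 and 132 CPM in L2427P, and 0.520, 258 and 38.2 CPM in WT replicates 1 to 3.

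Ahcyl1, an IP3 receptor-binding protein, was the member with footprints in all 9 libraries on 100 or more counts. Its footprints were at 441, 121 and 336 CPM in C1483Y, 563, 169 and 156 CPM in L2427P, and 192, 82.4 and 261 CPM in WT replicates 1 to 3. The means were 299 ± 163 CPM in C1483Y, 296 ± 232 CPM in L2427P and 178 ± 89.97 CPM in WT neurons (SD, n = 3 each), and the groups overlapped. In edgeR's fit both mutants differed from WT by 0.63 on the log2 scale (SE 0.94, unadjusted p = 0.501, adjusted p = 1.00), and by −0.11 without C1483Y replicate 1. Ahcyl1 mRNA was at 149, 125 and 52.0 CPM in C1483Y, 133, 349 and 0 CPM in L2427P, and 29.4, 110 and 156 CPM in WT replicates 1 to 3, again with overlapping groups.

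Ahcyl2 was less evenly detected. Its footprints were at 7.64, 48.9 and 152 CPM in C1483Y, 0.0746, 59.1 and 38.5 CPM in L2427P, and 0, 191 and 43.3 CPM in WT replicates 1 to 3. The groups overlapped over their whole range, and by edgeR both mutants differed from WT by −1.36 (log2, SE 2.69, unadjusted p = 0.613). Ahcyl2 mRNA was at 115, 0 and 0 CPM in C1483Y, 0.0188, 22.4 and 0 CPM in L2427P, and 24.3, 28.9 and 0 CPM in WT replicates 1 to 3.

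**Figure D3:**
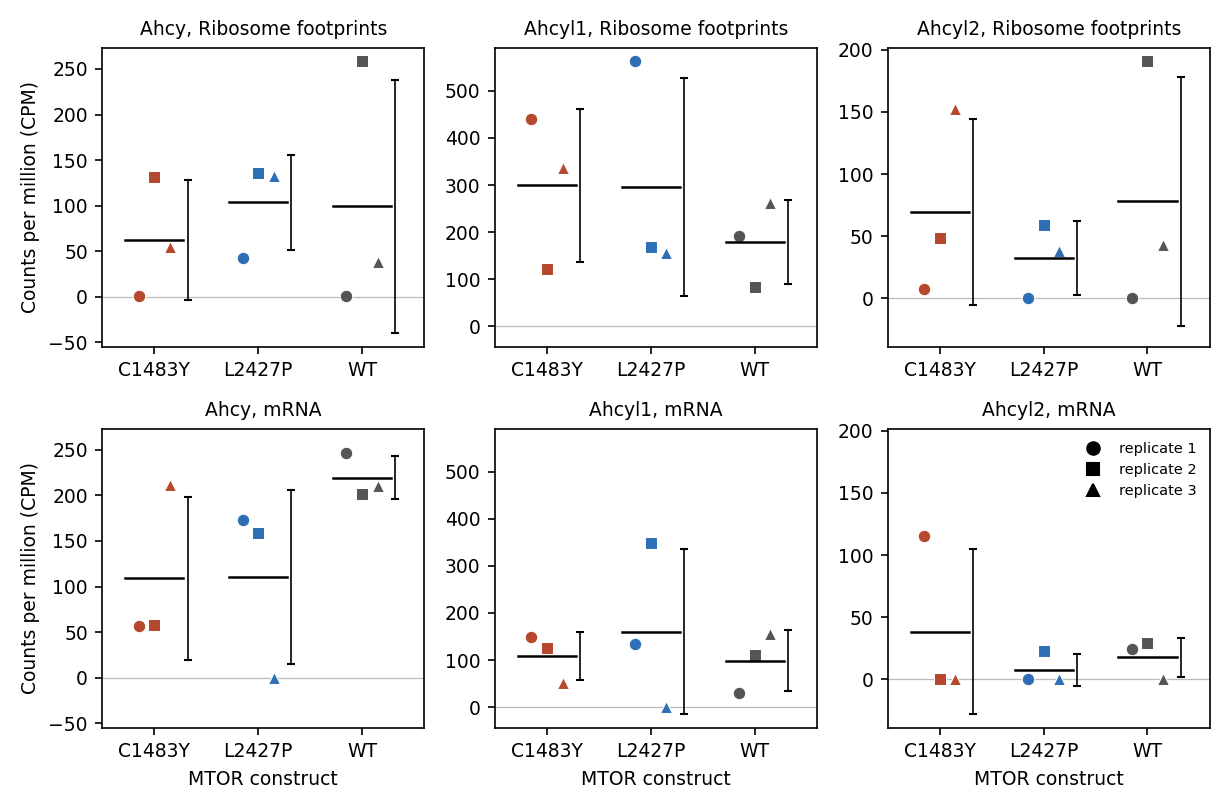
Footprints (top) and mRNA (bottom) of Ahcy, Ahcyl1 and Ahcyl2 in CPM for C1483Y, L2427P and WT neurons. Points are libraries, lines are group means and bars are ± 1 SD (n = 3 libraries each). WT libraries of Ahcy mRNA lie at 201 to 246 CPM and 5 of 6 mutant libraries lie below them, while the groups overlap in the other panels. Of these 5, 1 is L2427P replicate 3, the mRNA library with all members at 0.

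Adk footprints, alone or set against mRNA, were not tested between genotypes. No other member value passed edgeR's quasi-likelihood test between genotypes at an adjusted p of 0.05. The comparisons were C1483Y against WT, L2427P against WT, both mutants against WT and L2427P against C1483Y. Of all genes tested, 0.0% passed in footprints (10315 genes) and in translational efficiency (8876 genes), where efficiency sets footprints against mRNA of the same gene. In mRNA 0.0% of 9558 genes passed in the comparisons with WT and 0.0105% in L2427P against C1483Y. The filter on low counts kept 6 members in mRNA, 9 in footprints and 6 in translational efficiency, with Nt5e kept in neither assay. Leaving out the untested Adk values, the adjusted p-values of members over these comparisons were 0.710 to 1, and 2 unadjusted values were below 0.05, those of Adora1 in C1483Y and of Ada in L2427P footprints against WT. Adora1 and Ada passed the filter on low counts only through mutant libraries, so these 2 values are a description. Over all genes tested, 454 of 10315 were below 0.05 in the C1483Y comparison and 388 in the L2427P comparison. For both mutants against WT, an unadjusted p below 0.05 was reached by 458 of all genes in footprints and 214 in mRNA, and DESeq2 called 532 and 226 genes. The median SE of a log2 difference over all genes was 3.02 in footprints and 2.81 in mRNA. In mRNA, 0.241% of all genes tested had every mutant library above WT and 1.4% had every mutant library below, and 0 of the 6 tested members had either.

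Footprint and mRNA levels averaged over the genotypes could be compared for 6 members. By edgeR's quasi-likelihood test 248 of 8876 genes (2.79%) differed between footprints and mRNA, and 0 of the 6 members did. Ahcyl1 footprints exceeded its mRNA by 1.16 on the log2 scale (SE 0.95, adjusted p = 0.620), and Ahcy footprints differed from its mRNA by −0.50 (SE 1.24, adjusted p = 0.935). As group means, Ahcyl1 had footprint over mRNA ratios of 2.75 in C1483Y, 1.84 in L2427P and 1.81 in WT neurons, and Ahcy had 0.572 in C1483Y, 0.936 in L2427P and 0.451 in WT neurons. Of the 6 members, WT neurons had the lowest of the 3 ratios in Adk, Ahcy and Ahcyl1 and the highest in the other 3. This order is uncertain, since the L2427P ratios divide by mRNA means that include replicate 3, where all 10 members were at 0. For Ahcyl1 the ratios of L2427P and WT were nearly equal. Adk was listed for its footprints, so its place in this order is a description only. The ratio of Adal was 1.26 in C1483Y, 0.0255 in L2427P and 4.75 in WT neurons. That of Ahcyl2 was 1.82 in C1483Y, 4.35 in L2427P and 4.40 in WT neurons, and that of Slc29a1 was 0.160 in C1483Y, 1.07 in L2427P and 3.62 in WT neurons.

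**Figure D4:**
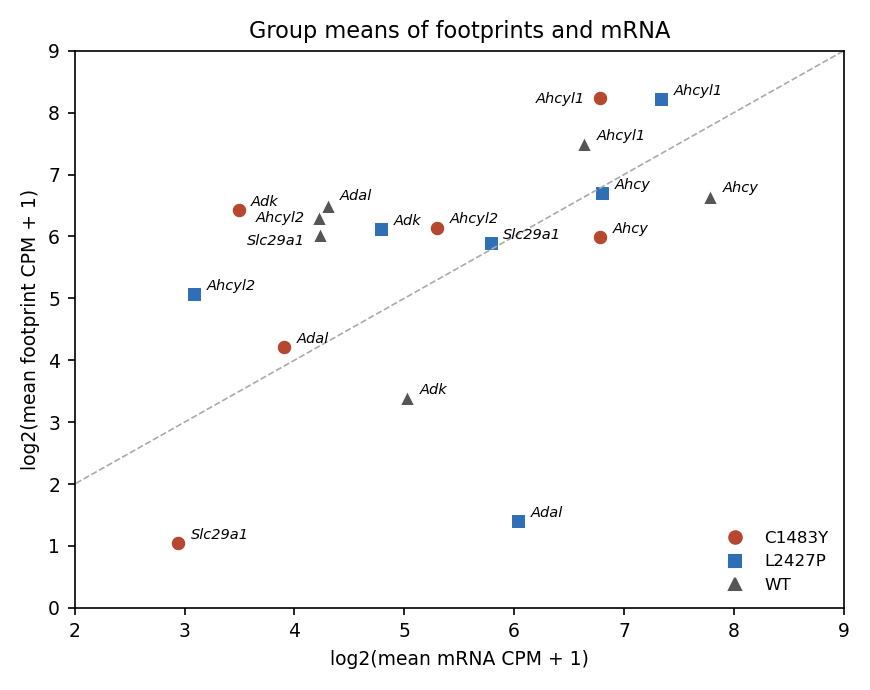
Group means of footprints (vertical axis) against mRNA (horizontal axis), both as log2(mean CPM + 1), for the 6 members kept in both assays; each point is 1 member in C1483Y, L2427P or WT neurons, and the dashed line marks equal values. Adk lies above the line in both mutants and below it in WT, Ahcyl1 lies above it in all 3 genotypes, and Ahcy lies below it in all 3.

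The wider adenosine and purine pathway was read from lists of 78 genes, members included. In footprints 50 of the 78 genes were tested, in mRNA 42 and in translational efficiency 40. Of these, 0 passed edgeR's test in either direction in any comparison between genotypes. Adk is among the genes fitted, but its footprint difference is a description and not a test. The median log2 difference of both mutants from WT was 0.14 in footprints, where it was −0.02 over all genes, and −0.38 in mRNA, where it was −0.28 over all genes. For nucleotidases, phosphatases and related enzymes that act on nucleotides, not all of which make adenosine, 7 of 16 genes were tested in footprints, with a median of 1.24. The methionine cycle had 10 of 17 tested with a median of −1.29, and de novo purine synthesis 13 of 13 with a median of 0.48. The medians were −0.09 for salvage and purine breakdown, −0.21 for nucleoside transporters and 0.74 for AMP and ADP kinases and deaminases. Of the 4 adenosine receptors only 1, Adora1, was tested. The median SE of a single gene in this comparison was 3.02, so no shift of a list can be read from these medians. None of these medians rests on a gene that passed the test.

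Among the best expressed pathway genes, Impdh2, the rate-limiting enzyme of guanine nucleotide synthesis, had footprints at 216 ± 95.2 CPM in mutant neurons (n = 5) and 81.0 ± 74.3 CPM in WT neurons (n = 3). The mutant range of 137 to 362 CPM overlapped the WT range of 0.520 to 147 CPM. Paics, an enzyme of de novo purine synthesis, had 259 ± 95.8 CPM in mutant and 314 ± 178 CPM in WT footprints. Mat2a, which makes S-adenosylmethionine, had 171 ± 136 CPM in mutant and 101 ± 123 CPM in WT footprints. Nt5c, a nucleotidase, had 76.4 ± 78.5 CPM in mutant and 16.8 ± 28.9 CPM in WT footprints. In each of these genes the libraries of mutant and WT neurons overlapped. Dck, which phosphorylates deoxynucleosides, had nearly equal means of 142 ± 103 CPM in mutant and 139 ± 78.5 CPM in WT footprints. Slc29a4, a further nucleoside transporter, had mRNA at 0 to 62.9 CPM in mutant libraries, against 56.6 to 187 CPM in WT libraries (edgeR, adjusted p = 1.00). Nt5c3, Slc29a3, Ak1 and Aprt, named by the same rule, also had overlapping groups in both assays.

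The genes whose footprints followed Adk most closely over the 8 libraries were 4930402H24Rik, Zfp318, Atf6b, Bnip3l and Nos1. Pearson's r of log2(CPM + 1) with Adk was 0.954, 0.948, 0.947, 0.944 and 0.939 in that order, among 7991 genes compared, of which 53 had an r of 0.9 or more. These values share the same libraries and depths and are a description. All 8 points include WT replicate 1, where Adk was at 0 and Zfp318, Atf6b, Bnip3l and Nos1 were at 0.130 to 1.04 CPM. In mRNA the same 5 genes had r with Adk between −0.37 and 0.29 over 9 libraries. Other members followed Adk footprints less closely, with r of 0.558 for Adora1, 0.493 for Ahcy, 0.429 for Ada, 0.388 for Ahcyl2, 0.210 for Slc29a1, 0.0801 for Ahcyl1 and −0.50 for Adal.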

How the data were processed

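Footprints and mRNA of sorted cortical neurons were sequenced in 18 libraries, 3 for each of 3 MTOR constructs and 2 assays. Per the submitters' processing notes, Bowtie 1.1.2, TopHat2 2.1.1, HTSeq and the mm10 build were used, but neither the annotation nor the strand setting is given in the sources used here. The authors deposited counts of reads per gene, whole numbers in 17 libraries. Footprint library C1483Y replicate 3 holds 165 deposited values that are not whole, so its column was treated as estimated counts and rounded. Its order was checked in windows of 300 genes against the other footprint libraries: 12 of 12 windows up to row 5400 matched without an offset and 0 of 47 after it. The CPM of that library use its total over all rows. The 27 names turned into dates and the 5 summary rows were left out.

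The members and lists were chosen with earlier results of these data known. Genes were kept by filterByExpr (minimum count 10), scaled by TMM and tested with edgeR 4.0.16 (quasi-likelihood, R 4.3.3), with Benjamini-Hochberg adjustment over all genes tested at 0.05. The fits had 9 mRNA libraries, 8 footprint libraries or all 17, with translational efficiency as the interaction of assay and genotype. edgeR's log2 fold changes of members are given only for members above 10 counts in at least 7 libraries of an assay. Each SE of a log2 difference is its absolute size divided by the square root of edgeR's F statistic. Single members were compared on log2(CPM + 1) with exact permutation tests, two-sided. All members are named, with the 2 pathway genes per list highest in mRNA and the 5 genes most like Adk. Some items that fall under these rules are not reported here. Likeness used genes with a mean footprint CPM of at least 10. Alternatives were DESeq2 1.42.0, its size factors, no filter, a replicate block, a pseudocount of 0.1 and leaving out each library. Tests were checked on simulated data. The simulation had a smaller spread between libraries than these data and no genes dropped to 0. It therefore does not show how the tests perform on these libraries. PCR reads carry no molecular identifiers in the labels, so floors of 3 counts cover counting error only.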

Additional observations from a re-analysis of the deposited data

How the results depend on the processing

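Adk footprints, alone or set against mRNA, were not tested between genotypes and are left out of the counts of members here. The number of members that edgeR called between genotypes was 0 under every edgeR alternative run. DESeq2 called 1 member, Ada, in L2427P against WT footprints, where it called 180 genes. It also called 1, again Ada, in L2427P against C1483Y footprints, where it called 306. Ada passed the filter on low counts only through its L2427P libraries. The number of genes that differed between footprints and mRNA was 375 with DESeq2 size factors, 1590 with DESeq2, 46 for rows up to 5400 with C1483Y replicate 3 and 34 for those rows without it, the last chosen after seeing the data; fewer genes are tested in those rows. Leaving out 1 library gave 188 to 382, with 382 without mRNA L2427P replicate 3. The Adk footprint ratio was 5.41 to 18.4 when 1 library was left out, and 7.79 with TMM library sizes. Same-numbered replicates did not deviate together (correlations −0.057 to 0.053, none above 0.1). With few libraries per group and many genes at 0 in some, this cannot tell whether same-numbered libraries share embryos. The labels do not say either. With the replicate block, 226 genes differed between footprints and mRNA, the Ahcyl1 mRNA difference became −0.27, the Ahcy footprint difference 0.85 and the Ahcyl2 footprint difference 1.87, none of them called. Signs of uncalled differences of both mutants from WT also turned when 1 library was left out: Ahcyl1 mRNA ranged over −0.18 to 0.86, Ahcy footprints over −4.57 to 2.19, Ahcyl1 footprints over −0.11 to 0.96 and Ahcyl2 footprints over −2.32 to 0.60. The Adal mRNA difference in the permutation test, 0.19 with a pseudocount of 1, was −0.0055 with a pseudocount of 0.1. The cause of these turns was not tested. In all, 700 alternative values kept their direction and their side of the threshold, 10 turned in sign and 79 moved by more than the spread between replicates or, for counts and the Adk ratio, by over 1.5 times.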
